A study of Arabidopsis thaliana with 12 samples.

Results

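STZ (locus AT1G27730, also called ZAT10) and the related locus AT2G28200 are 2 of the C2H2 zinc finger genes of Arabidopsis thaliana. Each was read by the 1 probe set that the platform annotation gives it, 261648_at for STZ and 265573_at for AT2G28200, among 22746 probe sets tested. The 2 genes themselves were chosen with earlier results of these data known, for their opposite responses and the spread between control arrays. In the RefSeq annotation of TAIR10.1, STZ is a protein-coding gene on chromosome 1 from 9648021 to 9649323, and AT2G28200 one on chromosome 2 from 12023940 to 12025370. Roots of 7-day-old seedlings of the ecotype Col-0 were sampled after 25 min with cellobiose, chitin or oligogalacturonides (OGs), or as a no treatment control. Each of these 4 groups had 3 Affymetrix ATH1 arrays, numbered as biological replicates 1 to 3. Cellobiose is a disaccharide released from cellulose, chitin here stands for oligomers of the fungal wall, and OGs are fragments of pectin. All groups were of the same ecotype, age and tissue. The sources used here state no dose. The submitters had first checked the RNA samples for the expected profile of another gene, WRKY30.

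Proteins of the C2H2 family bind DNA through fingers in which a pair of cysteines and a pair of histidines hold a zinc ion. In plants, many of the stress-related members also carry a short EAR motif that recruits corepressors, so that they lower the transcription of their targets. STZ takes its name from the salt tolerance it gave to yeast. Its transcript is known to rise quickly after salt, cold, drought, wounding and microbial elicitors, and its protein is a substrate of immune MAP kinases. For AT2G28200 no symbol is given in the annotation used here.

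The values are log2 intensities of probe sets after GCRMA, a background correction and between-array normalization that the authors applied, so a change of 1 is a doubling of signal. Arrays of a group resembled each other closely, with correlations of 0.986 to 0.996. Of the root markers, 4 of 11 had a named probe set. PYK10, an abundant root beta-glucosidase, lay at 13.21 to 13.85 over the 9 elicitor arrays and at 13.36 to 13.51 over the 3 control arrays, and the root hair expansin EXPA7 lay at 8.87 to 10.37 over the elicitor arrays and at 9.17 to 9.95 over the controls. RCA, a leaf gene of photosynthesis and the only shoot marker of 5 with a named probe set, gave 9.63 to 11.05 in elicitor arrays and 10.48 to 11.53 in controls, and none of these root and shoot markers passed the test with any elicitor. Control replicate 1 stood apart from controls 2 and 3 at many responding probe sets. It was shifted from them towards the elicitor arrays at 718 of the 906 probe sets that were higher with both cellobiose and chitin. The same held at 444 of the 538 that were lower with both. These sets were called with control 1 in the fit. No such count was made for controls 2 or 3, or over all probe sets. Results on both genes are given with and without control 1. RNA came from whole roots, in which a change in the share of cells that express a gene and a change in RNA per cell cannot be told apart.

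STZ was higher with each elicitor than in the controls, and passed the test with cellobiose and chitin. With cellobiose its level was 12.54, 10.89 and 12.03 in replicates 1 to 3. With chitin it was 12.72, 12.89 and 12.27. With OGs it was 11.52, 10.90 and 11.90, and in the controls 10.91, 7.50 and 7.51. Controls 2 and 3 were low and nearly equal, whereas control 1 lay level with the lowest elicitor arrays, so that the cellobiose and OGs groups overlapped the controls and the chitin group did not. Above all control arrays without overlap lay 10.1% of probe sets with chitin.

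**Figure D1:**
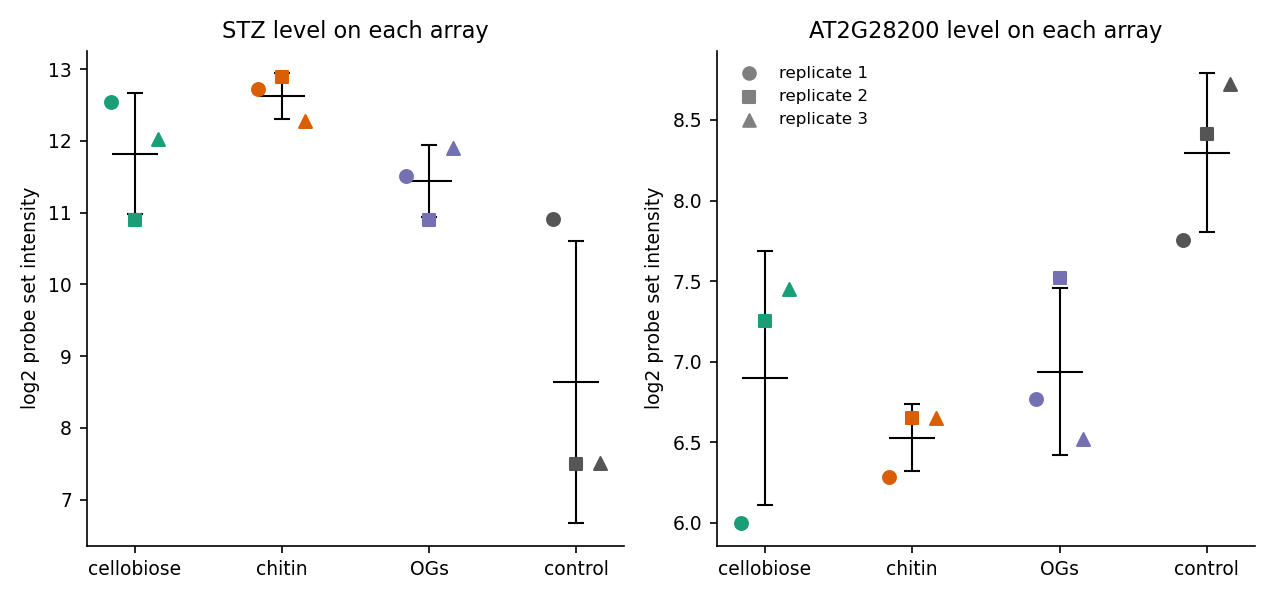
Levels of STZ (left) and AT2G28200 (right) on each array, as log2 probe set intensity, for cellobiose, chitin, OGs and control; marker shapes give the replicate number, and the bars the group mean with its SD (n = 3). STZ of control 1, at 10.91, sits among the elicitor arrays while controls 2 and 3 are at 7.50 and 7.51; all 9 elicitor values of AT2G28200 sit below the lowest control, at 7.76.

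The group mean of STZ was 11.82 ± 0.84 with cellobiose and 8.64 ± 1.96 in the controls (SD, n = 3 each). In a limma model of all 12 arrays with the replicate number as a block this was a change of 3.18 ± 0.66 log2 (SE), or 9.09-fold with a 95% interval of 3.26 to 25.4 (adjusted p = 0.0173). A rise at an adjusted p under 0.05 was found at 4.73% of probe sets with cellobiose. With chitin STZ averaged 12.63 ± 0.32 (SD, n = 3), 15.9-fold above the controls with an interval of 5.69 to 44.4 (limma adjusted p = 0.00542), where 4.97% of probe sets rose. With OGs it averaged 11.44 ± 0.50 (SD, n = 3), at 2.80 ± 0.66 log2 above the controls (SE). That is 6.97-fold with an interval of 2.49 to 19.5, and the adjusted p of 0.05005 lay just over the threshold, where 3.18% of probe sets rose. Among all tested probe sets these log2 changes ranked 116 from the top with cellobiose, 74 with chitin and 73 with OGs. The size rests in part on 1 array: without control replicate 1 the changes were 4.17, 4.98 and 3.79 log2 with cellobiose, chitin and OGs, and STZ then passed with all of them (limma adjusted p = 0.000666, 0.000281 and 0.00203). The call with cellobiose ended without control replicate 2 (limma adjusted p = 0.0779) or 3 (0.0969), and without cellobiose replicate 1 (0.0769) or 3 (0.0615), while the call with chitin held whichever single control or chitin array was left out. Without limma's moderation of the variances neither passed (adjusted p = 0.0906 with cellobiose and 0.0509 with chitin). With arrays also scaled to spike-in RNAs STZ passed with chitin (adjusted p = 0.0425) but not with cellobiose (0.0606).

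AT2G28200 moved the other way, and was lower with each elicitor. Its level was 6.00, 7.25 and 7.45 with cellobiose in replicates 1 to 3. With chitin it was 6.29, 6.65 and 6.65. With OGs it was 6.77, 7.52 and 6.52, and in the controls 7.76, 8.41 and 8.72. No elicitor array reached the lowest control, a separation that 5.68% of probe sets showed in this direction over all 9 elicitor arrays. The chitin arrays lay closest together, and cellobiose replicate 1 was the lowest array of all.

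The group mean was 6.90 ± 0.79 with cellobiose and 8.30 ± 0.49 in the controls (SD, n = 3 each), and AT2G28200 fell by 1.40 ± 0.28 log2 (SE), which is 2.63-fold with a 95% interval of 1.69 to 4.1 (limma adjusted p = 0.016). Falls made up 3.91% of probe sets with cellobiose. The share of falls depended on the scaling: with cellobiose, chitin and OGs 889, 872 and 201 probe sets fell and 1077, 1130 and 723 rose, against 374, 368 and 9 that fell and 632, 743 and 70 that rose with ordinary t statistics, and 6, 15 and 0 that fell and 932, 715 and 296 that rose when arrays were also scaled to spike-in RNAs. With chitin, at a mean of 6.53 ± 0.21 (SD, n = 3), the fall was 3.41-fold with an interval of 2.19 to 5.31 (limma adjusted p = 0.00464), where 3.83% of probe sets fell. With OGs, at 6.94 ± 0.52 (SD, n = 3), it was 2.57-fold with an interval of 1.65 to 4 (limma adjusted p = 0.0298), where 0.884% of probe sets fell. Counted from the most lowered probe set, AT2G28200 ranked 60, 27 and 36 with cellobiose, chitin and OGs. Leaving out control replicate 1 gave -1.45, -1.82 and -1.41 log2, at limma adjusted p = 0.0441, 0.0159 and 0.0692. The call with cellobiose ended without control replicate 3 (limma adjusted p = 0.0991) or cellobiose replicate 1 (0.0812), and with no replicate block (0.0516). The call with OGs ended without any of the 3 controls (limma adjusted p = 0.0692, 0.0889 and 0.184), without OGs replicate 1 (0.052) or 3 (0.0683), and with no replicate block (0.0896), and was kept without OGs replicate 2 (0.0293). Without limma's moderation of the variances AT2G28200 passed with chitin (adjusted p = 0.0449) but not with cellobiose (0.0838) or OGs (0.153), and the call with chitin ended when arrays were also scaled to spike-in RNAs (0.152).

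**Figure D2:**
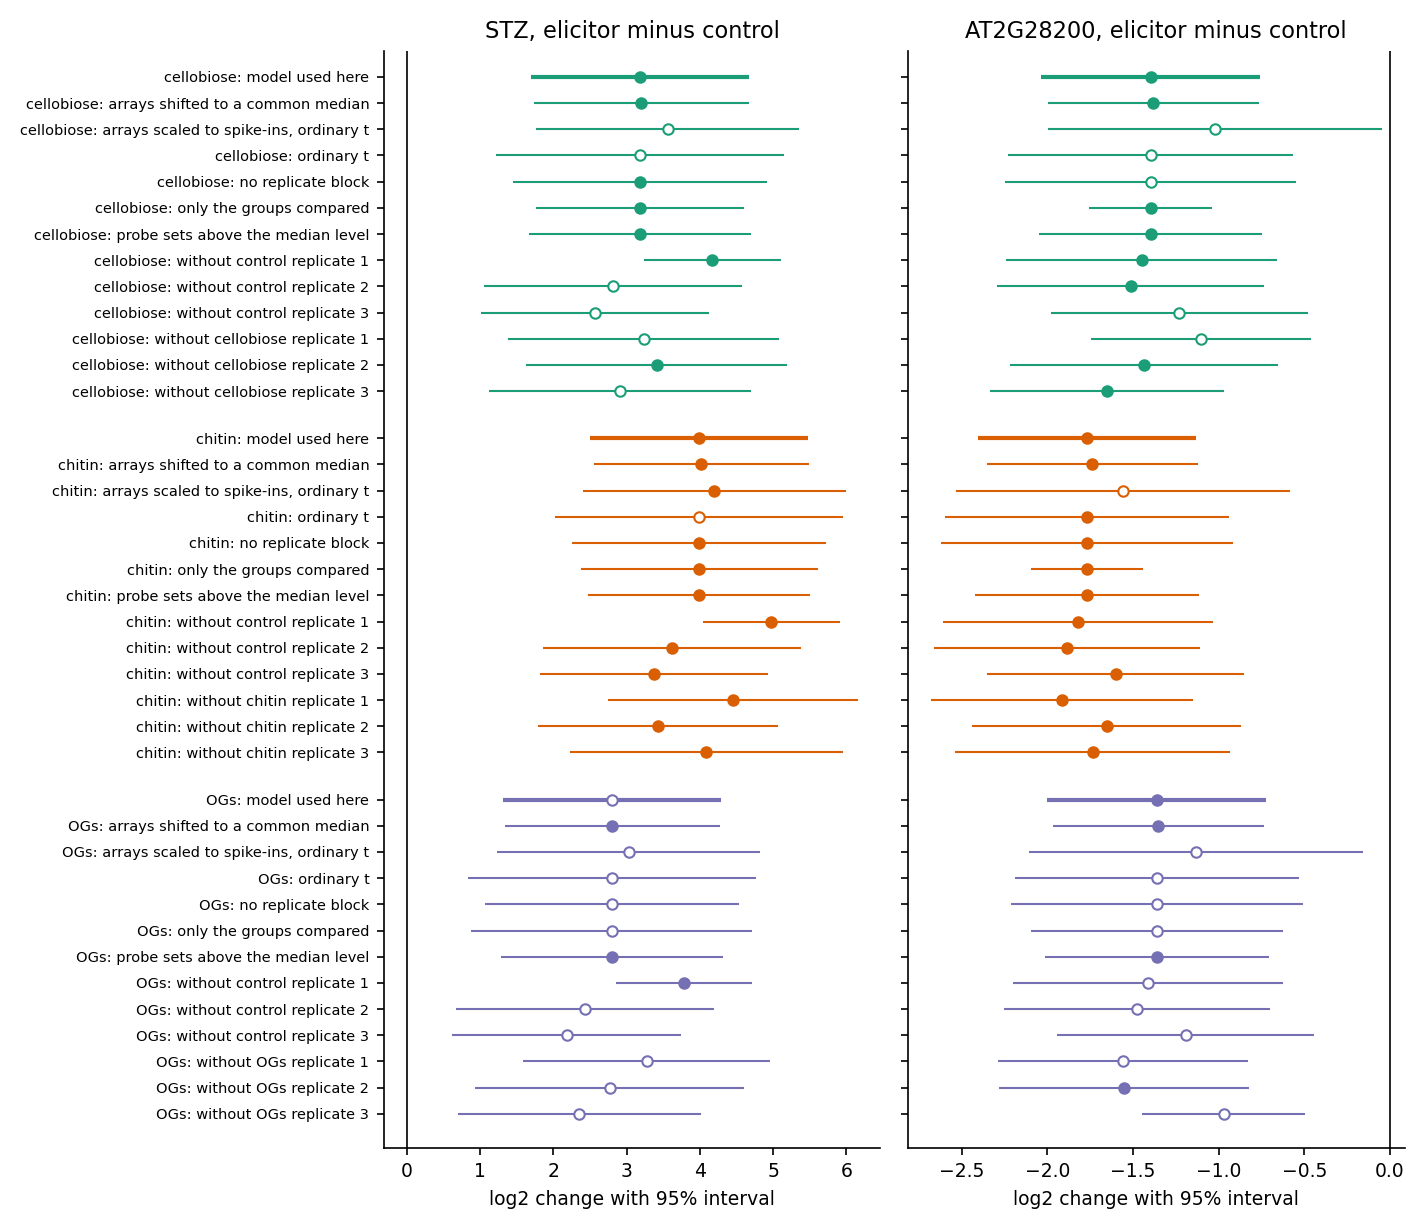
Log2 change of STZ (left) and AT2G28200 (right) against control with its 95% interval, for each elicitor, under the model used here and the alternatives. Fits that left out all arrays of a replicate number are not drawn. Filled points have an adjusted p under 0.05 and open points do not. All points for STZ lie above 0 and all for AT2G28200 below 0, and the OGs rows hold the most open points.

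Since the study took ratios of an elicitor array to the control of the same number, the changes were also set out pair by pair. For STZ the log2 ratios with cellobiose were 1.63, 3.39 and 4.53 in pairs 1 to 3. With chitin they were 1.81, 5.39 and 4.77, and with OGs 0.61, 3.40 and 4.39. All 9 were above 0, and pair 1, which holds control 1, gave the smallest ratio with each elicitor. For AT2G28200 they were -1.76, -1.16 and -1.27 with cellobiose. With chitin they were -1.47, -1.77 and -2.07, and with OGs -0.99, -0.90 and -2.20. All 9 were below 0, and no pair number gave the smallest fall with every elicitor. A control array below all elicitor arrays of its own number, in each of the 3 sets, as for STZ, occurred at 7.71% of probe sets, and one above them, as for AT2G28200, at 12.7%.

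**Figure D3:**
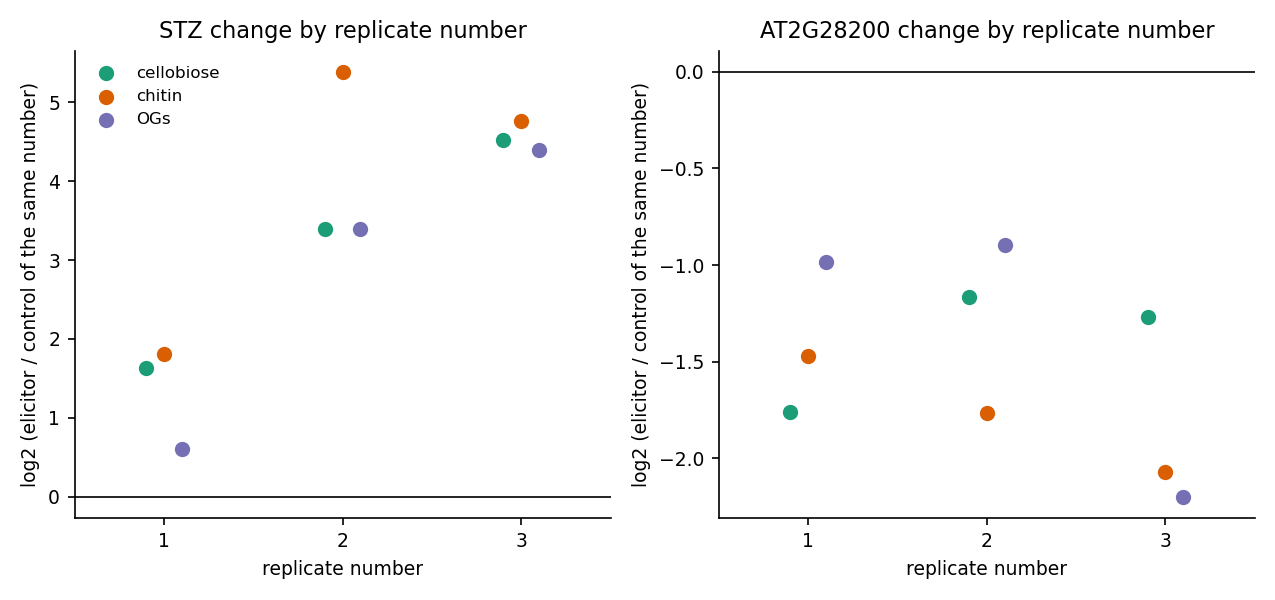
Log2 ratio of each elicitor array to the control array of the same replicate number for STZ (left) and AT2G28200 (right); colours give the elicitor. STZ ratios in pair 1 run from 0.61 to 1.81 and those of the other pairs from 3.39 to 5.39, whereas AT2G28200 ratios in pair 1 lie among the rest.

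The controls differed far more for STZ than for most genes. Their SD was 1.96 log2, against a median of 0.12 over all probe sets, and 24 of 22746 probe sets had a larger one. The spread between controls was part of the choice of genes, so this rank only describes STZ. Control 1 exceeded the mean of controls 2 and 3 by 3.40 log2, or 10.6-fold. For AT2G28200 the SD of the controls was 0.49, with 903 probe sets above it, and control 1 was 0.81 log2 below the mean of the others. Within the elicitor groups the SDs for cellobiose, chitin and OGs were 0.84, 0.32 and 0.50 for STZ, and 0.79, 0.21 and 0.52 for AT2G28200. The chitin group was thus the tightest for both genes, although the median SD over all probe sets was 0.13 with chitin, 0.12 with cellobiose and 0.12 with OGs.

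**Figure D4:**
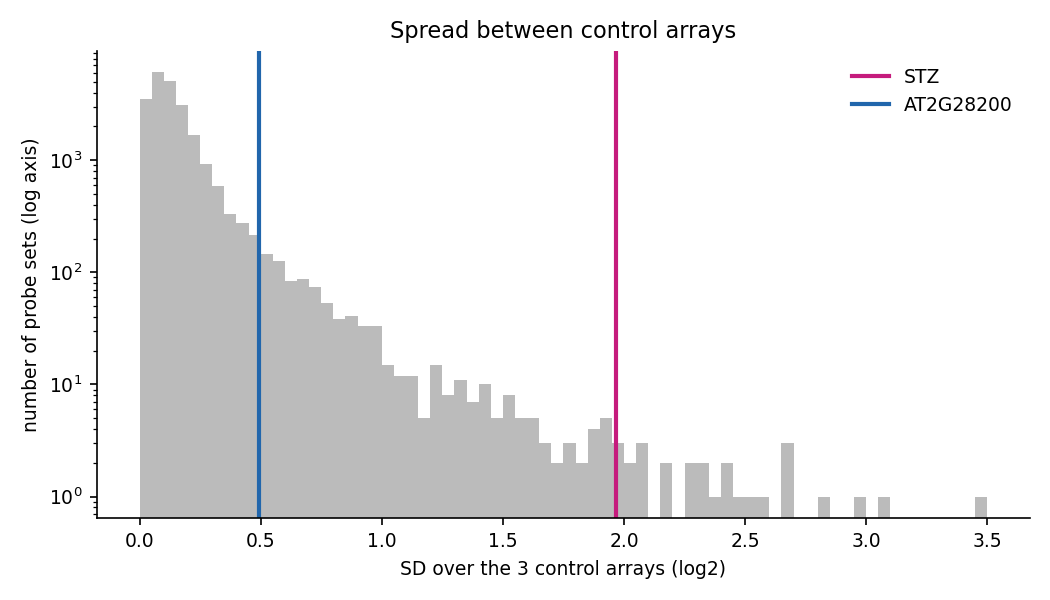
Distribution of the SD over the 3 control arrays for all 22746 probe sets, in log2 units on the horizontal axis and as numbers of probe sets on a log axis. AT2G28200 stands at 0.49 and STZ at 1.96, in the far tail.

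On the way from controls 2 and 3 to the mean of the 9 elicitor arrays, control 1 stood at 76.3% for STZ. Over the 906 probe sets that rose with both cellobiose and chitin the median was 25.3%, with quartiles of 4.9% and 48.1%, and 70 of them had a larger value than STZ. AT2G28200 stood at 45.6%, within the quartiles of 12.8% and 53.0% of the 538 probe sets that fell with both, whose median was 36.2%. These sets were chosen with control 1 among the arrays, so the values only describe it. Of the 22746 probe sets tested, control 1 was more than 2 log2 above both other controls at 105, and 54 of these were among the 906. The same count was not made for controls 2 and 3. Touch and wounding genes had 2 of 18 members with a named probe set. CML37, a calmodulin-like gene induced by wounding, was at 6.54 in control 1 and at 3.83 and 3.80 in controls 2 and 3. ORA47, a wound-induced activator of jasmonate synthesis, was at 6.85 in control 1 and at 3.97 and 4.05 in the others. Its high level was not particular to control 1: replicate 1 was at 7.99 with cellobiose and 7.72 with chitin, and at 4.86 with OGs. The part of touch or wounding in the level of STZ in control 1 was not tested.

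**Figure D5:**
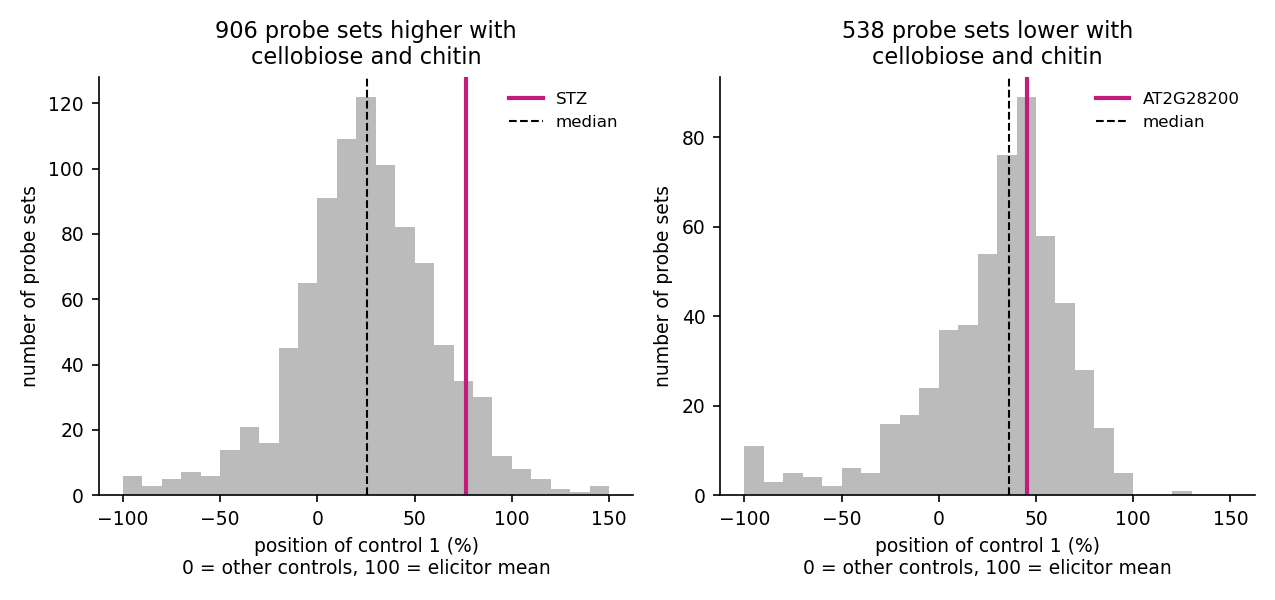
Position of control replicate 1 between controls 2 and 3 (0%) and the mean of the 9 elicitor arrays (100%), for probe sets that rose (left) or fell (right) with both cellobiose and chitin; values beyond the axis are drawn in the end bins. STZ at 76.3% lies to the right of the median of 25.3%, and AT2G28200 at 45.6% near its median of 36.2%.

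The elicitors were then set against each other. By group mean STZ was highest with chitin, then cellobiose, then OGs, and lowest in the controls, while AT2G28200 had the same order from the low end. Neither gene passed in any of these 3 comparisons, in which 0.0176% of probe sets passed between cellobiose and chitin, 0.044% between cellobiose and OGs and 0.106% between chitin and OGs. Cellobiose minus chitin was -0.80 log2 for STZ with a 95% interval of -2.29 to 0.68 (limma adjusted p = 0.872), and 0.37 for AT2G28200 with an interval of -0.27 to 1.01 (0.871). Cellobiose minus OGs was 0.38 for STZ (interval -1.10 to 1.87) and -0.04 for AT2G28200 (interval -0.68 to 0.60), each at a limma adjusted p of 0.999. Chitin minus OGs was 1.19 for STZ (interval -0.29 to 2.67; limma adjusted p = 0.882) and -0.41 for AT2G28200 (interval -1.05 to 0.23; 0.92). The lowest chitin array for STZ, at 12.27, still lay above the highest OGs array, at 11.90, a separation in this direction that 4.72% of probe sets showed. Each interval for STZ reached 1.87 log2 or more in size on the wider side, so these arrays did not show that the elicitors acted alike on it.

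Over the 12 arrays the levels of the 2 genes ran opposite, with Pearson r = -0.90 and Spearman rho = -0.83. Controls 2 and 3 lay far below the other 10 arrays for STZ. Over the 9 elicitor arrays alone r was -0.72 and rho -0.68, and without controls 2 and 3, the arrays farthest from the median of STZ, r was -0.78. The 2 genes were chosen for opposite responses in these data, so a negative r over the 12 arrays follows from that choice. All arrays share the normalization, and these coefficients describe them only. In the OGs group the array lowest for STZ, replicate 2, was the highest for AT2G28200, and replicate 3 was the reverse. In the cellobiose group replicate 1 was highest for STZ and lowest for AT2G28200, as control 1 was among the controls. In the chitin group the array highest for STZ, replicate 2, was not the lowest for AT2G28200, which was replicate 1.

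The named genes whose levels followed each gene most closely were sought among 13512 other probe sets of 1 gene, by Pearson r over the 12 arrays. Most alike to STZ were AT3G04640 (r = 0.99), AT3G10930 (0.99), AT1G70740 (0.99), AT1G32920 (0.99) and AT5G62620 (0.98), none of which has a symbol in the annotation. Over the 9 elicitor arrays their r with STZ was 0.94, 0.98, 0.94, 0.98 and 0.95. AT3G10930 had the widest range of them, at 10.47, 9.03 and 9.95 with cellobiose and 8.01, 5.52 and 5.58 in the controls. They rose with cellobiose by 1.64, 3.45, 1.51, 1.87 and 1.01 log2 in the order named, and AT3G10930 and AT3G04640 also passed with OGs, at limma adjusted p of 0.011 and 0.0165. With ordinary t statistics AT3G10930 alone kept its call with cellobiose (adjusted p = 0.0376). When arrays were also scaled to spike-in RNAs, all of them kept that call. For both AT3G10930 and AT3G04640 the call with OGs held in 3 alternatives and ended in 3. These genes were picked by likeness to STZ over elicitor and control arrays, so their rises follow from that choice and only describe them. The most unlike were AT4G36970 (r = -0.97), AT1G75770 (-0.96) and AT5G64500 (-0.96). AT2G28200 itself followed at r = -0.90, behind 48 other named probe sets.

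For AT2G28200 the closest were AT5G20885 (r = 0.98), AT1G56220 (0.97), the UDP-glucosyl transferase gene UGT71C4 (0.97), AT1G75760 (0.97) and AT2G40230 (0.96). Over the 9 elicitor arrays their r was 0.95, 0.95, 0.95, 0.92 and 0.96. AT2G40230 had the largest fall with chitin, by 1.38 ± 0.27 log2 (SE), with levels of 7.29, 7.41 and 7.33 with chitin and 7.88, 8.95 and 9.33 in the controls (limma adjusted p = 0.0125). UGT71C4 fell by 0.69, 0.75 and 0.63 log2 with cellobiose, chitin and OGs (limma adjusted p = 0.00506, 0.00277 and 0.0149). All 5 fell with cellobiose and chitin, and of them UGT71C4 alone passed with OGs. Such falls follow from the choice by likeness over elicitor and control arrays. With ordinary t statistics UGT71C4 kept its calls with cellobiose and chitin, AT5G20885 kept that with chitin, and the other genes kept neither. With arrays also scaled to spike-in RNAs none of the 5 passed with cellobiose or chitin (for UGT71C4 adjusted p = 0.349 and 0.505). The most unlike were AT2G28400 (r = -0.96), AT4G33985 (-0.95) and AT4G12790 (-0.95), and STZ came behind 97 other named probe sets. Likeness over so few arrays, with elicitor and control arrays pooled, is a description.

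Relatives were looked at through a list of 17 C2H2 zinc finger loci, of which 7 had a named probe set, STZ and AT2G28200 included. With cellobiose 2 of the 7 rose, 1 fell and 4 did not pass, with chitin likewise 2, 1 and 4, and with OGs 1, 1 and 5. Over all tested probe sets 4.73%, 4.97% and 3.18% rose and 3.91%, 3.83% and 0.884% fell with cellobiose, chitin and OGs. The calls of STZ and AT2G28200 are in these counts. Of the other 5 relatives, AT2G28710 rose with cellobiose and OGs and AT3G53600 with chitin, and none fell in this limma fit. The median change of the other 5 was 0.15, 0.04 and -0.02 log2 with cellobiose, chitin and OGs, against a median of -0.03, -0.04 and -0.03 over all tested probe sets. AT2G28710 was at 6.42, 7.12 and 6.83 with cellobiose and at 5.56, 5.97 and 5.92 in the controls. It rose by 0.98 ± 0.15 log2 (SE) with cellobiose (limma adjusted p = 0.00384) and by 0.67 ± 0.15 with OGs (0.04, and 0.153 with no replicate block), and with chitin it was at 0.20 ± 0.15 and did not pass (0.476). Of the 3 control and 3 OGs arrays left out singly, each but OGs replicate 2 (limma adjusted p = 0.0124) ended the call with OGs. It also ended with ordinary t statistics (adjusted p = 0.151), with spike-in scaling and ordinary t statistics (0.0668) and with only OGs and control arrays (0.121).

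AT3G53600 was the relative with the widest range. It was at 8.94, 5.84 and 5.75 with cellobiose, at 8.98, 7.52 and 7.18 with chitin, and at 8.31, 5.49 and 6.74 with OGs. In the controls it was at 7.12, 4.96 and 5.04. Replicate 1 was the highest array in every group, and the 2.19 ± 0.34 log2 (SE) rise with chitin passed (limma adjusted p = 0.00424), but not with no replicate block (0.217). The call with chitin also ended with spike-in scaling and ordinary t statistics (adjusted p = 0.0583). It was 1.14 log2 higher with cellobiose and with OGs, and passed with neither (limma adjusted p = 0.0808 and 0.115). AT5G03510 was lower by -0.31, -0.53 and -0.57 log2 with cellobiose, chitin and OGs and did not pass (limma adjusted p = 0.417, 0.132 and 0.16). AT2G45120, between 3.72 and 4.29, and AT3G60580, between 3.85 and 4.51, stayed low on all arrays and did not pass with any elicitor.

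Genes known to act around STZ were largely without a named probe set, and were then not analysed here. That held for all 11 MAP kinase and oxidase genes listed upstream and all 8 corepressor genes. Of 15 cold, drought and oxidative stress genes, 2 had a named probe set, and none passed with any elicitor. COR47, a dehydrin gene of cold and drought, was at 12.99, 13.10 and 13.09 with cellobiose and 13.46, 13.22 and 13.11 in the controls, and COR15A, a cold-induced chloroplast protein gene, lay between 3.74 and 3.97 over all arrays. CML37 rose by 4.21 ± 0.65 log2 with cellobiose and 5.58 ± 0.65 with chitin (SE; limma adjusted p = 0.00433 and 0.000884). With OGs it was 2.52 ± 0.65 higher and did not pass (adjusted p = 0.0703), but did without control replicate 1 (0.0361). Controls 2 and 3 of CML37, at 3.83 and 3.80, lay within the range of COR15A. Whether background limited the size of the CML37 rise was not tested. ORA47 passed with none, at 7.99, 4.06 and 4.08 with cellobiose, 7.72, 4.45 and 4.11 with chitin and 4.86, 4.32 and 4.46 with OGs. Of the 6 protein-coding genes nearest to STZ, 3 on each side, only AT1G27700 had a named probe set, at 0.17, 0.23 and 0.12 log2 above the controls with cellobiose, chitin and OGs (limma adjusted p = 0.273, 0.126 and 0.536). None of the 6 nearest to AT2G28200 had one, and they were not analysed here.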

How the data were processed

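Total root RNA was labelled with biotin and hybridized to ATH1 GeneChips. The deposited table gives a log2 intensity per probe set, made by the authors with GCRMA, per the labels' design text. Affymetrix Expression Console is also named, per the submitters' processing notes. Scanner files were not used here. Of 22810 probe sets, 64 Affymetrix controls were set aside and 22746 tested. Names came from GEO's platform annotation, updated through RefSeq; 13513 probe sets had 1 gene, 503 several, and 8730 are unnamed here.

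All 12 arrays were fitted in limma 3.58.1 (R 4.3.3) with treatment and the replicate number as a block, because the study formed its ratios within sample pairs. The two-sided tests had 6 residual and 3.09 prior degrees of freedom, with Benjamini-Hochberg adjustment across all tested probe sets per comparison. A gene passed at an adjusted p under 0.05. The number of arrays limits the precision. Labels call the samples biological replicates, and nothing further is given on their origin. The scripts were tested on simulated data. Alternatives comprised 2 array scalings, ordinary t statistics, no block, fewer groups, a filter on low values, and leaving out arrays. The members and gene lists were chosen with earlier results of these data known. Listed genes with a named probe set were counted and the 5 most and 3 least alike to each gene named; a choice of relatives by protein sequence was not made.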

Additional observations from a re-analysis of the deposited data

How the results depend on the processing

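Arrays and named probe sets are few, values are relative to a between-array normalization, and no detection calls were used. In the comparisons with control STZ stayed higher and AT2G28200 lower under every alternative run; several calls did not hold, and beyond the arrays left out and the smaller fits the cause was not tested. Spike-in scaling used 24 poly-A control probe sets and moved the overall median change to 0.34, 0.17 and 0.20 log2 with cellobiose, chitin and OGs. Under it, with ordinary t statistics, STZ with cellobiose was at 3.56 and AT2G28200 at -1.02, -1.56 and -1.13 with cellobiose, chitin and OGs, and these did not pass, while STZ with chitin did (4.20). AT2G28200 in cellobiose minus OGs became 0.11, AT5G03510 with cellobiose 0.068, and AT5G64500 0.21 with cellobiose and 0.057 with OGs. Unscaled ordinary t statistics ended the calls of STZ with cellobiose (3.18) and chitin (3.99) and of AT2G28200 with cellobiose (-1.40) and OGs (-1.36). STZ with OGs passed after a shift of arrays to a common median (2.81) and among the probe sets above the median level (2.80). With only OGs and control arrays AT2G28200 (-1.36) did not pass.

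The same replicate number gave correlated deviations over 0.1 in 11 of 18 array pairs (median 0.19, -0.17 to 0.59), and different numbers in 9 of 36 (median -0.14, -0.60 to 0.57). Not every same-numbered pair passed 0.1, so the block rests on the design text. With no replicate block AT2G28200 was at -1.40 with cellobiose and -1.36 with OGs and did not pass, STZ was at 3.18, 3.99 and 2.80 with its calls unchanged, and 19 probe sets differed between cellobiose and OGs.

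Leaving out single arrays, or, as chosen after seeing the data, all 4 arrays of a number, gave STZ changes of 2.51 to 4.17 with cellobiose, 3.29 to 5.08 with chitin and 2.00 to 3.90 with OGs. AT2G28200 ran from -1.65 to -1.10, -1.92 to -1.60 and -1.59 to -0.94. Leaving out single arrays gave cellobiose minus OGs of -0.090 to 0.83 for STZ and -0.43 to 0.26 for AT2G28200. ORA47 ran from -0.14 to 0.71 with cellobiose and -0.95 to 0.57 with OGs. Without replicate 2 in all groups or without replicate 3, STZ lost its calls with cellobiose (limma adjusted p = 0.102 and 0.155) and chitin (0.106 and 0.0616); without replicate 1 it passed with OGs (0.0174). AT2G28200 lost its call with cellobiose without replicate 1 (0.138) or 2 (0.0840), with chitin without replicate 2 (0.0714), and with OGs without replicate 1, 2 or 3 (0.0963, 0.0911 and 0.175).

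The numbers of probe sets called were 1966 with cellobiose, 2002 with chitin and 924 with OGs. They were 1006, 1111 and 79 with ordinary t statistics, 938, 730 and 296 with ordinary t statistics after spike-in scaling, of which 6, 15 and 0 were lower, and 146 with OGs alone against control. Leaving out arrays gave 651 to 1808, 746 to 1861 and 47 to 1369. Between elicitors 4 probe sets differed for cellobiose minus chitin, 10 for cellobiose minus OGs and 24 for chitin minus OGs. These were 0, 0 and 1 with ordinary t statistics, 0, 0 and 0 with ordinary t statistics after spike-in scaling, and 0 each with only the groups compared. Among probe sets above the median level they were 0 and 1 for the cellobiose comparisons. In the 9 settings in which limma or the ordinary t statistics called 0, between 437 and 1238 probe sets had an unadjusted p under 0.05. Leaving out single arrays gave 2 to 6, 1 to 29 and 2 to 105.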

Other observations

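Some of the genes described above differed between replicate numbers as well as between treatments. In cellobiose, chitin and control arrays ORA47 was at 7.99, 7.72 and 6.85 in replicate 1, and between 3.97 and 4.45 in replicates 2 and 3 of those groups. OGs replicate 1 was at 4.86. The relative AT3G53600 was highest in replicate 1 of all 4 groups, at 8.94, 8.98, 8.31 and 7.12 with cellobiose, chitin, OGs and in the controls. STZ was highest in replicate 1 of the cellobiose and control groups, in replicate 2 of the chitin group and in replicate 3 of the OGs group. AT2G28200 was lowest in replicate 1 of the cellobiose, chitin and control groups and in replicate 3 of the OGs group. The labels do not say what the arrays of a number shared.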
